A study of Medicago truncatula with 9 samples.

Results

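miR5213 is a small RNA of the legume Medicago truncatula, counted here as its 5p arm, mtr-miR5213-5p (22 nt), and its 3p arm, mtr-miR5213-3p (21 nt). Both entries were found by name among the 905 entries of the deposited count table, 684 of which are known miRNAs. The pair was selected by the abundance of the 5p arm in these same libraries, so its high level is a description and was not tested. The libraries came from entire R108 seedlings after 72 h in a dish with alkali (5 mM, a mixture of sodium carbonate and sodium bicarbonate), with salt (20 mM, a mixture of sodium chloride and sodium sulfate) or with distilled water alone. There were 3 libraries for each condition, named AS1 to AS3 for alkali, SS1 to SS3 for salt and DW1 to DW3 for distilled water. All seedlings were of the same genotype, and the study describes 1 dish per condition, without stating whether the replicates came from separate dishes, so p-values measure the spread between these libraries. The total miRNA count was 4135854 to 6503979 in alkali, 3918174 to 7191272 in salt and 3746957 to 4554748 in distilled water.

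A plant miRNA is cut from a hairpin precursor as a duplex of a 5p and a 3p strand. One strand is usually loaded into an ARGONAUTE protein and guides the cleavage of matching mRNAs, while the other is usually degraded. In legumes several 22-nt miRNAs pair with mRNAs of NBS-LRR genes, which encode intracellular immune receptors, and the cleaved transcripts are turned into phased secondary siRNAs. The classification supplied with the study files mtr-miR5213-5p in the MIR2109 family, which is known in legumes for pairing with NBS-LRR transcripts of the TIR class. Targets were not measured in these libraries.

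mtr-miR5213-5p was the entry with the most reads in all 9 libraries. Its counts were 2488555, 2823260 and 1693404 in AS1, AS2 and AS3. In salt they were 1219971, 1661695 and 2681826 in SS1, SS2 and SS3, and in distilled water 1659485, 2043898 and 1530748 in DW1, DW2 and DW3. As a share of all miRNA counts, the 5p arm took 39.4%, 43.4% and 40.9% in the alkali libraries. The share was 29.0%, 42.4% and 37.3% in the salt libraries and 44.3%, 51.8% and 33.6% in the distilled water libraries. The lowest share was that of SS1 and the highest that of DW2, the alkali libraries lay close together, and the 3 conditions overlapped. The Wilson 95% interval of each share was narrow, for example 51.77% to 51.87% in DW2, but it covers counting error only and not the difference between libraries, which was far larger.

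The share of mtr-miR5213-5p averaged 41.3% ± 2.00 in alkali, 36.2% ± 6.76 in salt and 43.2% ± 9.15 in distilled water (SD, n = 3 each). The difference was -1.98 percentage points for alkali against distilled water (exact permutation test, two-sided, p = 0.7). It was -7.00 percentage points for salt against distilled water (p = 0.4, same exact test) and 5.02 for alkali against salt (p = 0.3, same exact test). Adjusted over the 3 comparisons, these exact p-values were 0.7, 0.6 and 0.6. With 3 libraries against 3 this test cannot give less than 0.1. Each difference was smaller than the larger SD of the 2 conditions compared, though that of alkali from salt exceeded the alkali SD and that of salt from distilled water the salt SD. Without DW2 the difference of alkali from distilled water was 2.32 percentage points, and without DW3 it was -6.79, so a single control library decided its direction. The salt difference was -2.71 without DW2, -3.39 without SS1 and -11.8 without DW3, and the difference of alkali from salt was 1.41 without SS1 and 8.11 without SS2.

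The second most abundant entry in each of the 9 libraries was mtr-miR159a, which guides the cleavage of MYB transcription factor mRNAs. It took 23.4%, 20.1% and 20.8% of the counts in AS1, AS2 and AS3, 28.4%, 19.7% and 23.7% in SS1, SS2 and SS3, and 19.1%, 12.8% and 24.3% in DW1, DW2 and DW3. Where the share of mtr-miR5213-5p was lowest, in SS1, that of mtr-miR159a was highest, and in DW2 the order was the reverse. The 5p arm therefore outnumbered mtr-miR159a by 4.06 times in DW2 and by 1.02 times in SS1. The sum of both entries varied less, at 62.7% ± 0.913 in alkali, 60.2% ± 2.46 in salt and 62.0% ± 3.58 in distilled water (SD, n = 3 each). Shares of one total constrain each other, so this opposition is partly built in. The next entries were far lower, with mtr-miR166a, a regulator of HD-ZIP III genes, at 2.86% ± 0.350 (SD, n = 9 libraries), mtr-miR166g-3p at 2.86% ± 0.350 and mtr-miR166e-3p at 2.65% ± 0.275. mtr-miR156g-3p followed at 2.56% ± 0.688 and mtr-miR396a-5p, of a family that targets GRF genes, at 2.31% ± 0.485. Between neighbours these 5 do not differ beyond their spread. mtr-miR166a and mtr-miR166g-3p had nearly equal shares, so these 2 are not clearly separate cases. Entries with identical counts each add to the totals. When such entries were fitted once, 490 of the 647 entries tested remained. With them counted once, the share of mtr-miR5213-5p differed by -1.97 percentage points in alkali and -7.03 in salt, each against distilled water.

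**Figure D1:**
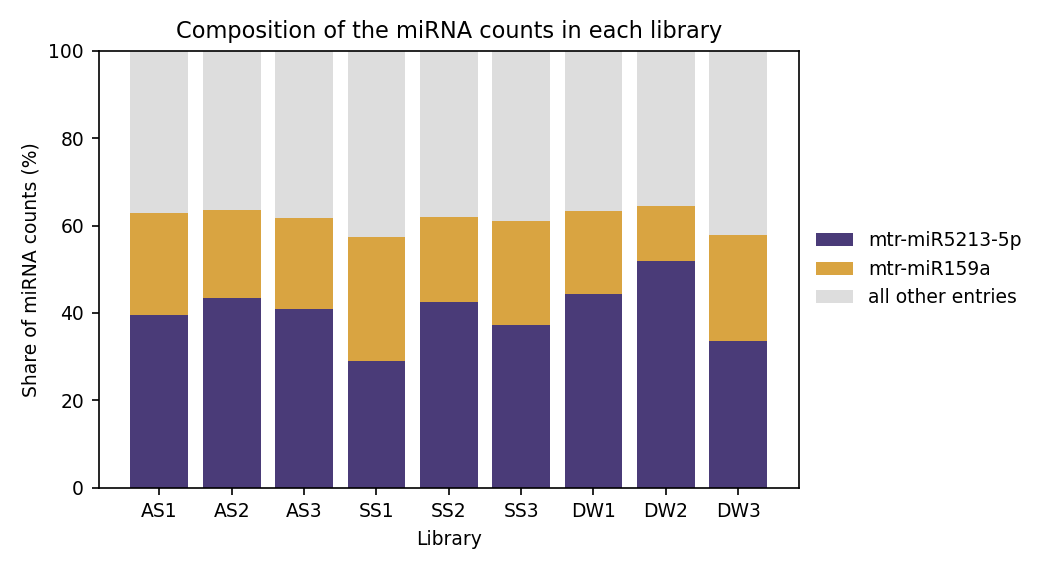
Share of all miRNA counts (%) taken by mtr-miR5213-5p, mtr-miR159a and all other entries in each library (AS alkali, SS salt, DW distilled water). mtr-miR5213-5p is the largest single entry in each bar, from 29.0% in SS1 to 51.8% in DW2, and both entries together take 57.4% to 64.6%.

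Among miRNAs of its own length mtr-miR5213-5p stood nearly alone. It held 96.5% to 97.5% of the 22-nt counts in alkali, 94.8% to 97.1% in salt and 95.3% to 97.1% in distilled water. The next 22-nt entries by mean share were the predicted unconservative_7_24079 at 0.359% and unconservative_4_42676 at 0.288%, followed by mtr-miR2118, an NBS-LRR regulator, at 0.227%. The mean share of mtr-miR5213-5p was thus 178 times that of mtr-miR2118. This and the arm ratios below compare reads of different sequences. How evenly different sequences were captured in the libraries was not measured. No other entry had the same counts as either arm in all libraries. Reads that match several similar sequences may have been assigned by rules that are not given in the sources used here.

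The 3p arm was rare. mtr-miR5213-3p had 96, 87 and 60 counts in AS1, AS2 and AS3, 57, 81 and 116 counts in SS1, SS2 and SS3, and 57, 71 and 75 counts in DW1, DW2 and DW3. Per 1000000 miRNA counts this was 13.4 to 15.2 in alkali, 13.6 to 20.7 in salt and 15.2 to 18 in distilled water. SS2 was the highest library and AS2 the lowest. Over all libraries the pooled level was 15.7 per 1000000, and the exact Poisson 95% intervals of 8 of the 9 libraries held it. The exception was SS2, with an interval of 16.4 to 25.7. At this depth the intervals were wide, and the pooled level includes these same libraries. Differences between libraries were therefore not tested in this way. By reads the 3p arm ranked 322nd to 443rd in single libraries.

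One 3p read was therefore counted for every 25922, 32451 and 28223 reads of the 5p arm in AS1, AS2 and AS3. The ratio was 21403, 20515 and 23119 in SS1, SS2 and SS3, and 29114, 28787 and 20410 in DW1, DW2 and DW3. The alkali libraries all lay above the salt libraries, while the distilled water libraries spanned both, with DW3 the lowest of all 9. The mean log2 ratio of 5p to 3p counts was 14.81 ± 0.164 in alkali, 14.40 ± 0.0874 in salt and 14.65 ± 0.291 in distilled water (SD, n = 3 each). The difference in log2 ratio was 0.41 for alkali against salt (exact permutation test, two-sided, p = 0.1, the smallest this design allows, and 0.3 adjusted over the 3 comparisons). It was 0.16 for alkali against distilled water and -0.25 for salt against distilled water (p = 0.6 and 0.4 by the same exact test). Of 36 pairs of arms compared in the same way, 19.4%, 7 pairs with miR5213 among them, did not overlap between alkali and salt, 22.2% did not overlap between alkali and distilled water and 16.7% between salt and distilled water. The 36 pairs are not all separate cases, since mtr-miR2592e, mtr-miR2592o and mtr-miR2592q had equal summed counts of both arms. Without DW3 the difference of alkali from distilled water in the log2 ratio of miR5213 was -0.010, so that library decided its direction. The precision of this ratio is set by the 57 to 116 reads of the 3p arm.

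Of 69 known miRNAs with both arms in the table, 36 had at least 10 counts per library on average for each arm. miR5213 had the most unequal arms of the 36, with 17802842 reads of the 5p arm and 700 of the 3p arm in all libraries, a ratio of 25433. It was followed by mtr-miR319b and mtr-miR319d, in which the 3p arm, the guide against TCP transcription factor mRNAs, outnumbered the 5p arm by 3758 and 3012 times. Their 3p arms had nearly equal summed counts, 777835 and 777103, so these 2 are not clearly separate cases. The median pair had a ratio of 4.32. Since miR5213 was picked on the abundance of its 5p arm, its rank is a description. Between libraries of one condition the log2 ratio varied with an SD of 0.199, against a median of 0.229 over the pairs, and 20 pairs varied more.

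**Figure D2:**
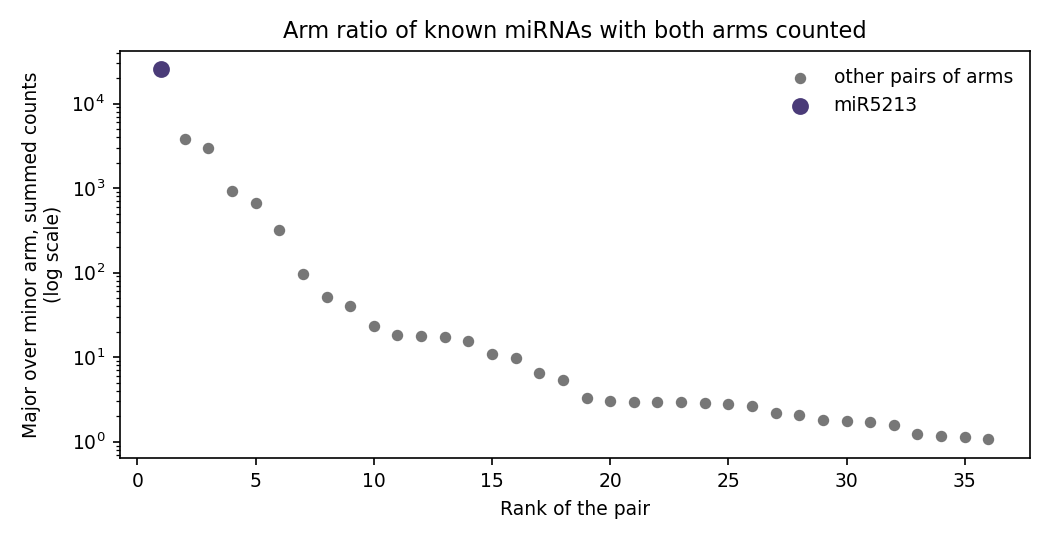
Reads of the major arm for each read of the minor arm (log scale, summed over 9 libraries) for the 36 known miRNAs with at least 10 counts per library on average in each arm, ordered by rank. miR5213 lies at 25433, mtr-miR319b next at 3758, and the median pair at 4.32.

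To compare conditions, library sizes were set by TMM (trimmed mean of M-values), a method that takes the relative size of each library from the bulk of miRNAs and leaves out the most abundant ones, and counts were expressed per 1000000 of the scaled library (CPM). CPM on this scale is not a share of the counts. mtr-miR5213-5p was at 513349, 500864 and 429714 CPM in AS1, AS2 and AS3, 270845, 486968 and 353332 CPM in SS1, SS2 and SS3, and 328020, 469136 and 313256 CPM in DW1, DW2 and DW3. Of the 6 salt and distilled water libraries, SS2 and DW2 reached the alkali range, so the conditions overlapped, where 34.6% of all entries tested did not overlap between alkali and distilled water, 24.1% between salt and distilled water and 25% between alkali and salt. mtr-miR5213-3p was at 15.2 to 19.8 CPM in alkali, 12.7 to 23.7 CPM in salt and 11.3 to 16.3 CPM in distilled water. These ranges overlapped too. A different number of cells that make the miRNA and a different amount of it per cell cannot be told apart in whole seedlings.

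mtr-miR5213-5p averaged 481309 ± 45117 CPM in alkali, 370381 ± 109066 CPM in salt and 370137 ± 86052 CPM in distilled water (SD, n = 3 each). Its fold change was 1.30 in alkali against distilled water (approximate 95% interval 0.913 to 1.85), with a log2 fold change of 0.38 (standard error 0.261, edgeR quasi-likelihood adjusted p = 0.254, by Benjamini-Hochberg over 647 entries). In salt against distilled water the fold change was 1.0 (interval 0.703 to 1.43, adjusted p = 0.999 from edgeR). In alkali against salt it was 1.30 (interval 0.912 to 1.85, adjusted p = 0.497 from edgeR), with a log2 fold change of 0.38 that was 0.19 without SS1 and 0.62 without SS2. The intervals allow changes of up to 1.85-fold. mtr-miR5213-3p averaged 16.8 ± 2.58 CPM in alkali, 17.2 ± 5.79 CPM in salt and 14.3 ± 2.67 CPM in distilled water (SD, n = 3 each). Its fold change was 1.18 in alkali and 1.19 in salt, each against distilled water, and 0.993 in alkali against salt (adjusted p = 0.463, 0.55 and 0.99 from edgeR).

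A miRNA counted as changed where its fold change exceeded 1.5 with an adjusted p below 0.05. By edgeR 0 of the 2 arms were called in any comparison, where 17.2% of all entries tested were called in alkali against distilled water, 8.19% in salt against distilled water and 4.02% in alkali against salt. At an unadjusted p under 0.05 edgeR also gave 0 of the 2 arms in each comparison. DESeq2 called 0 as well, with mtr-miR5213-5p at an unadjusted p of 0.0292 and an adjusted p of 0.0881 (log2 fold change 0.49) in alkali against distilled water. On the TMM scale the libraries of one condition differed more for the 5p arm than for most well-expressed entries. The SD of its log2 CPM within conditions was 0.317, against a median of 0.236 for the 50 entries with the most reads and 0.278 for all entries tested. For log2 shares of the totals this SD was 0.247. The median was 0.191 for the 50 entries and 0.294 for all entries tested, so on shares it varied less than the typical tested entry.

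**Figure D3:**
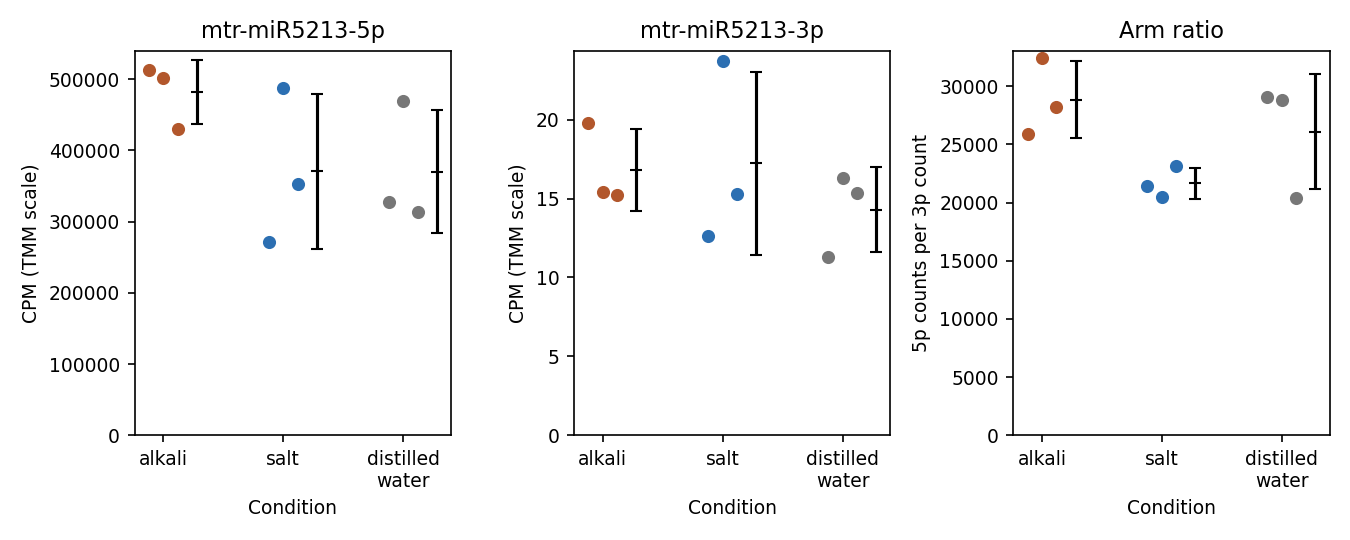
Levels of mtr-miR5213-5p and mtr-miR5213-3p (CPM on the TMM scale) and the number of 5p counts per 3p count, by condition. Points are libraries and bars show the mean ± SD (n = 3); the alkali mean of the 5p arm is 481309 CPM and that of distilled water 370137 CPM, with overlapping libraries, while the alkali arm ratios lie above all 3 salt ones.

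The sign of the alkali difference of mtr-miR5213-5p followed the library size used. Relative to the TMM scale its log2 fold change against distilled water was 0.38, relative to the clean reads of the study 0.35 (standard error 0.357) and relative to total miRNA counts -0.067 (standard error 0.179). In salt against distilled water the corresponding values were 0.00095, 0.030 and -0.25. edgeR gave adjusted p-values between 0.254 and 0.999 for these 6 values. The totals moved in the same way for other miRNAs, since the median log2 fold change of all 647 entries was -0.17 on the TMM scale and -0.61 with totals in alkali against distilled water, and -0.058 and -0.28 in salt against distilled water. mtr-miR5213-5p lay above 76.7% of entries in alkali and above 56.7% in salt on the TMM scale. Per 100 clean reads, a total that also holds reads outside the miRNA table, the 5p arm had 7.86, 7.12 and 5.20 counts in AS1, AS2 and AS3. It had 4.16, 6.82 and 5.18 counts in SS1, SS2 and SS3 and 4.18, 6.44 and 5.21 counts in DW1, DW2 and DW3. All other miRNAs together had 7.51 to 12.1 counts per 100 clean reads in alkali, 8.71 to 10.2 in salt and 5.26 to 10.3 in distilled water. DW1 and DW2, with high shares of mtr-miR5213-5p, had the fewest counts of other miRNAs on this scale. Their counts of mtr-miR5213-5p were within the range of the remaining libraries but lay apart. DW1, at 4.18, was close to the lowest library, SS1, and DW2, at 6.44, was the highest distilled water library. The cause of their high shares was not tested.

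**Figure D4:**
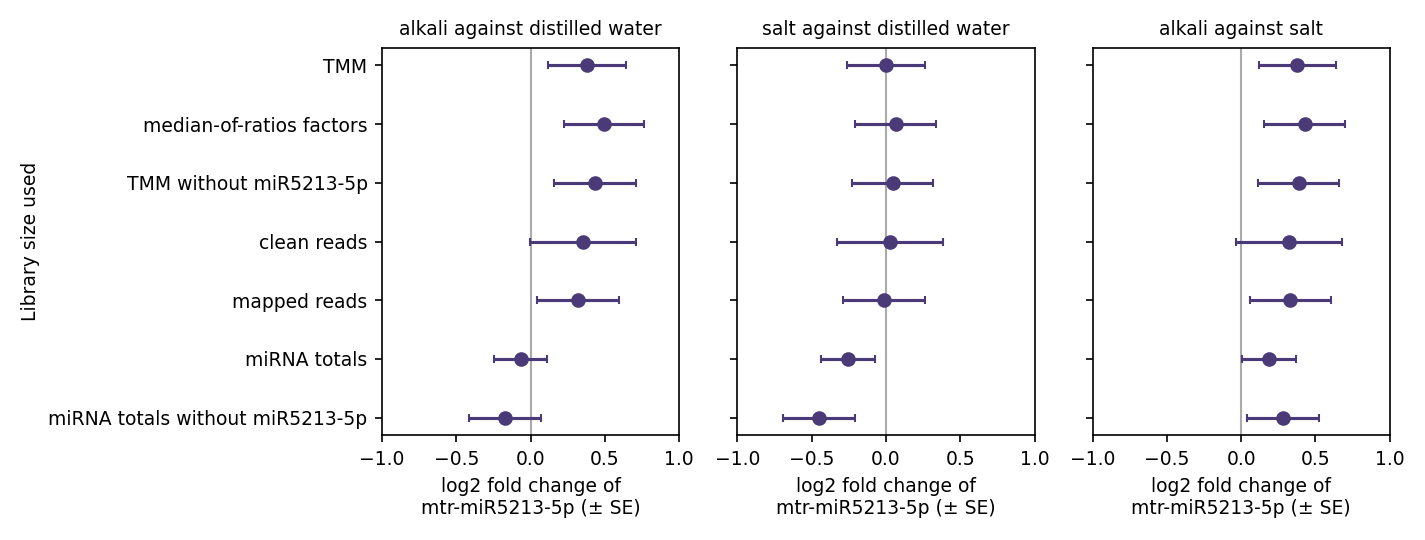
log2 fold change of mtr-miR5213-5p (± standard error) in the 3 comparisons under 7 ways of setting the library size. In alkali against distilled water it is 0.38 with TMM and -0.067 with miRNA totals, and no value passed the test.

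An entry that takes so large a share could set the scale for all others when libraries are divided by their totals. Taking mtr-miR5213-5p out of the totals changed the relative library size by up to 0.303 on the log2 scale, with -0.30 in DW2, 0.26 in SS1 and 0.16 in DW3. Taking it out of the table before TMM changed the relative library size by at most 0.0905, in AS2. In each of the 8 libraries compared with the TMM reference library, DW3, the 5p arm fell among the entries of highest abundance that TMM leaves out. TMM factors were 0.768, 0.867 and 0.953 in AS1, AS2 and AS3, 1.07, 0.871 and 1.06 in SS1, SS2 and SS3, and 1.35, 1.10 and 1.07 in DW1, DW2 and DW3. Their relation to the share of mtr-miR5213-5p did not pass the test, with Pearson's r = 0.0445 (exact permutation p = 0.915) and Spearman's rho = 0.167 (exact permutation p = 0.678) over the 9 libraries, and r = 0.00146 without SS1 and DW2. Among 2 such relations computed, the one with the share of mtr-miR159a had r = -0.138 (exact permutation p = 0.738) and rho = -0.183 (exact permutation p = 0.644), with r = -0.165 without DW2 and SS1 and an adjusted p of 0.915 for both. As deviations from the condition means, r was -0.132 for the share of mtr-miR5213-5p and 0.168 for that of mtr-miR159a (exact permutation within conditions, p = 0.773 and 0.731), so the sign was not kept within conditions for either. Each pair of measures comes from the same counts. The factors of all alkali libraries and of all salt libraries were below those of all distilled water libraries. For each stress the exact permutation p was 0.1, or 0.15 adjusted over 3 comparisons. In salt the gap was narrow, with 1.07153 in SS1 against 1.07285 in DW3.

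**Figure D5:**
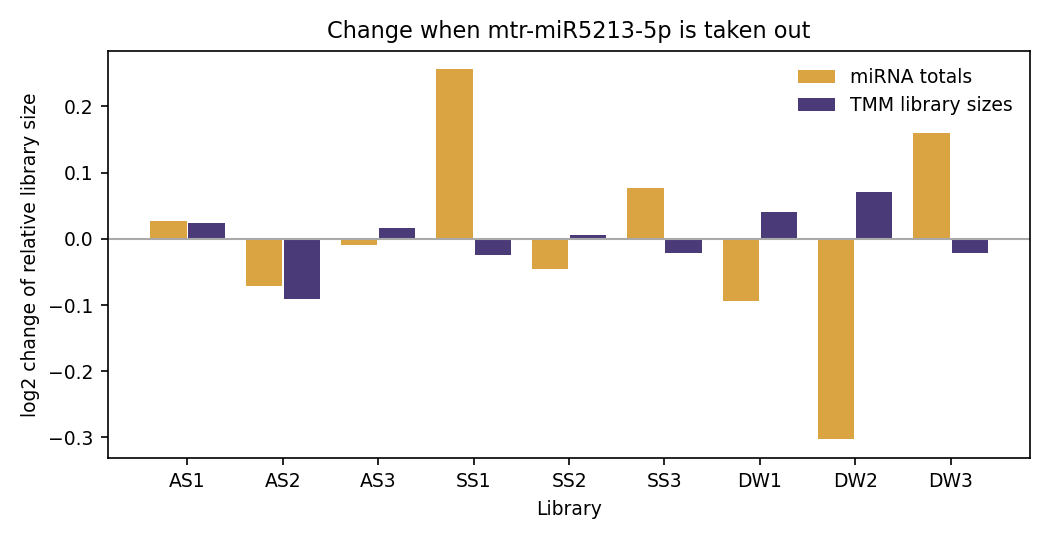
log2 change of each library's relative size when mtr-miR5213-5p is taken out of the miRNA totals or out of the table before TMM. The totals change by -0.30 in DW2 and 0.26 in SS1, and the TMM sizes by at most 0.0905.

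Calls among the other miRNAs were counted with and without the 5p arm. On the TMM scale 56 entries rose and 55 fell in alkali against distilled water, and when mtr-miR5213-5p was taken out before scaling, 63 rose and 47 fell, with 103 calls shared. In salt against distilled water 26 rose and 27 fell with it, and 34 rose and 26 fell without it, with 52 shared. In alkali against salt the numbers were 22 and 4 with it and 22 and 3 without it. With libraries divided by their totals, 23 rose and 255 fell in alkali against distilled water, and 22 rose and 257 fell when mtr-miR5213-5p was left out of those totals. The split in salt against distilled water was 13 and 46 with totals and 1 and 38 with totals that leave it out. Leaving mtr-miR5213-5p out did not bring the totals closer to the TMM sizes, since the SD of the log2 ratio of both sizes over the libraries was 0.241 with it and 0.299 without it. AS1 and DW1 had the lowest and the highest TMM factor, and without both of them the log2 fold change of mtr-miR5213-5p was 0.28 in alkali against distilled water (adjusted p = 0.632 from edgeR).

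Entries of other miRNA families that regulate NBS-LRR genes were taken as a list of 11, the arms of miR1507, miR1510, miR2089, miR2118 and miR482. All 11 had enough counts for a test. The list counts both arms of a hairpin where both were in the table, so its entries are not 11 separate regulators. Together they held 1.51% to 1.81% of the counts in alkali, 1.62% to 1.86% in salt and 1.63% to 1.87% in distilled water, so mtr-miR5213-5p alone had 15.6 to 31.9 times their sum. In alkali against distilled water 2 of the 11 rose and 0 fell, where 8.66% of all entries rose and 8.50% fell. The list's median log2 fold change was 0.43, against -0.17 for all entries tested. The 2 were both arms of mtr-miR1510b, and their mature sequences are shown with bases 2 to 8, the seed, in capitals.
mtr-miR1510b-3p: aCAUGGUCgguaucccuggaa
mtr-miR1510b-5p: cCAUGGAUcccuaccaugugg
mtr-miR1510b-3p, the arm known to pair with NBS-LRR mRNAs, was at 3374, 2592 and 2823 CPM in AS1, AS2 and AS3, 2988, 3104 and 2482 CPM in SS1, SS2 and SS3, and 1331, 1716 and 2091 CPM in DW1, DW2 and DW3. All alkali and salt libraries lay above all distilled water libraries, as part of the 34.6% and 24.1% of all entries whose libraries did not overlap with distilled water in alkali and in salt. Against distilled water its log2 fold change was 0.77 in alkali, with a standard error of 0.197 and an edgeR adjusted p of 0.00931. In salt it was 0.74, with a standard error of 0.197 and an edgeR adjusted p of 0.0291. Among the miRNAs that the study also measured by RT-qPCR, mtr-miR1510b-3p was the only exception to the similar patterns it reports for both methods. The alkali value of mtr-miR1510b-3p was 0.34 with totals (adjusted p = 0.0779 from edgeR), 0.28 with totals without the 5p arm of miR5213 and 0.53 without DW1 and AS1, and the call was lost in each, and with clean reads. Its salt call was also lost with clean reads (adjusted p = 0.146 from edgeR) and with totals (0.52, under the 1.5-fold threshold). That call also depended on single libraries. It was lost without SS1, SS2, DW1 or DW2 (adjusted p = 0.105, 0.114, 0.0656 and 0.089 from edgeR) and kept without SS3 or DW3. The mtr-miR1510b-5p arm was at 2303, 1632 and 1566 CPM in AS1, AS2 and AS3, 1459, 1842 and 1279 CPM in SS1, SS2 and SS3, and 672, 840 and 1483 CPM in DW1, DW2 and DW3, where DW3 came close to the alkali libraries. Its log2 fold change was 0.88 in alkali, with a standard error of 0.243 and an edgeR adjusted p of 0.0175, and 0.61 in salt, with an adjusted p of 0.117. The alkali value of mtr-miR1510b-5p was 1.34 without DW3, and its call was lost without AS1 (0.68, adjusted p = 0.0719 from edgeR), without DW2 (0.84, adjusted p = 0.0593), without DW1 and AS1 (0.47), with clean reads and with totals (0.45).

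In salt against distilled water 1 of the 11, mtr-miR1510b-3p, rose and 0 fell, where 4.02% of all entries rose and 4.17% fell, and the list's median log2 fold change was 0.27, against -0.058 for all entries. In alkali against salt edgeR and DESeq2 called 0 of the 11, where 3.4% of all entries rose and 0.618% fell, and both tools gave 1, mtr-miR1510a-3p, at an unadjusted p under 0.05. The most abundant member, mtr-miR1510a-3p, had 0.299% of the counts and a log2 fold change of 0.56 in alkali against distilled water (adjusted p = 0.033 from edgeR), under the 1.5-fold threshold. Of the 22-nt members none passed the test in alkali against distilled water, with log2 fold changes of -0.079 for mtr-miR2118, 0.15 and 0.31 for the 3p and 5p arms of mtr-miR1507, and 0.46 and 0.059 for the 3p and 5p arms of mtr-miR2089. The calls of the list depended on single libraries and on the scale. In alkali they were 1 without AS1, 6 without DW3, and 0 with clean reads, with miRNA totals or without both DW1 and AS1, and in salt they were 0 without SS1, SS2, DW1 or DW2, 3 without AS1 or AS3 and 4 without DW3.

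Finally, the entries whose levels most resembled those of mtr-miR5213-5p over the 9 libraries were sought among 360 count profiles with a mean of at least 10 CPM. The closest was the predicted 24-nt miRNA unconservative_3_38591, with a Pearson's r of 0.862 between log2 CPM values. It had 225, 196 and 183 CPM in AS1, AS2 and AS3, 165, 223 and 172 CPM in SS1, SS2 and SS3, and 181, 225 and 152 CPM in DW1, DW2 and DW3. As with mtr-miR5213-5p, the highest salt and distilled water libraries were SS2 and DW2. It was followed by mtr-miR2593d (24 nt) at r = 0.838 and mtr-miR5256 (21 nt) at r = 0.735. The median profile had r = 0.101, mtr-miR159a had r = -0.0043, and the 3p arm of miR5213 had r = 0.716. All these values share the same library scaling, and on shares of the totals the r of the 3 closest entries was 0.666, 0.651 and 0.353. They are given as descriptions.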

How the data were processed

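Small RNA libraries of 9 samples of entire seedlings were analysed. After trimming, the authors retained reads of 18 to 30 nt, used Bowtie to discard other classes of non-coding RNA, mapped what was left to the Mt4.0 genome and counted reads for each known (miRBase) or predicted miRNA. The deposited counts are whole numbers that were not normalized. The deposited TPM values are those counts per 1000000 of the library's miRNA total. The other deposited column holds the length of the mature miRNA. Table columns were assigned by the codes in the sample labels, with 0 unmatched.

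The counts were tested with edgeR 4.0.16 under R 4.3.3 (filterByExpr with a minimum count of 10, TMM, robust quasi-likelihood test, all 9 libraries by condition), which tested 647 entries with Benjamini-Hochberg adjustment. Log2 CPM values used a prior count of 2. Shares and arm ratios, single values per library, were compared by exact permutation tests. The approximate 95% intervals of fold changes come from the standard errors of log2 fold changes. Alternatives were DESeq2 1.42.0, other library sizes (the clean and mapped reads are the study's totals), filters, a replicate block, leaving out libraries, and limma 3.58.1 on log2(TPM + 1). The limma fit, the correlation within conditions and the omission of both DW1 and AS1 were added after the data were seen. The procedure was also run on simulated counts whose means followed the library totals, apart from fold changes set in alkali. That run does not cover the differences between library sizes described above. The members, lists and rules were chosen with earlier results of these data known. The miRNAs named were the 2 arms, the 5 next most abundant entries, called and most abundant members of the lists, and the 3 entries most like mtr-miR5213-5p, and the remaining ones were named after their values were seen. Entries close to the 5p arm in sequence were not searched for. Sequences came from the study's supplementary tables. The authors' own test results in those tables were not used.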

Additional observations from a re-analysis of the deposited data

How the results depend on the processing

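The 2 arms were called under none of 23 alternatives in any comparison, but the small log2 fold changes changed sign with the scale. For mtr-miR5213-5p in alkali against distilled water the value was -0.067 with library totals, -0.17 with totals without the 5p arm and -0.046 with limma on log2 TPM, and 0.33 to 0.67 when 1 library was left out. In salt against distilled water it was -0.25 with totals, -0.45 with totals without the 5p arm, -0.25 with limma, -0.013 with mapped reads, -0.019 with identical entries fitted once and -0.054 without DW1 and AS1, and -0.25 to 0.27 when 1 library was left out. In alkali against salt it was 0.19 to 0.62 when 1 library was left out. For mtr-miR5213-3p in alkali against distilled water the value was -0.21 with totals, -0.28 with totals without the 5p arm, -0.021 without DW1 and AS1 and -0.19 with limma, and 0.10 to 0.42 with 1 library left out. In salt it was -0.15 with totals without the 5p arm and -0.022 to 0.42 with 1 library left out. In alkali against salt it was 0.042 with median-of-ratios size factors, 0.034 with DESeq2 and 0.014 with identical entries fitted once, and -0.19 to 0.26 with 1 library left out. The cause was not tested.

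Shares per clean reads differed by 1.45 percentage points in alkali and 0.112 in salt against distilled water, and leaving out 1 library gave -6.79 to 2.32 for the share of counts in alkali against distilled water. The log2 arm ratio ranged from -0.010 (without DW3) to 0.25 in the same comparison with 1 library left out. The correlation of TMM factors with the share of mtr-miR5213-5p was -0.132 for deviations from condition means, -0.23 without DW1 and AS1 and -0.15 to 0.19 with 1 library left out.

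The number of miRNAs called in alkali against distilled water was 278 with totals, 279 with totals without the 5p arm, 42 without DW1 and AS1 and 49 to 202 with 1 library left out (49 without AS1, 58 without DW1, 67 without DW2, 173 without AS3 and 202 without DW3). It was 110 with the 5p arm left out of TMM. In salt it was 7 with clean reads, 80 in a fit of only the 2 conditions and 8 to 101 with 1 library left out (8 without SS2, 12 without DW2, 13 without SS1, 20 without DW1, 27 without SS3 and 101 without DW3), and in alkali against salt 16 with identical entries fitted once and 18 to 63 with 1 library left out (63 without AS3). In alkali against distilled water, 63.6% of the calls were higher with median-of-ratios size factors, 68.6% with DESeq2, 31.5% with clean reads, 35.1% with mapped reads and 8.27% with totals, against 50.5% with TMM. In salt 77.5% were higher with DESeq2 and 2.56% with totals without the 5p arm, against 49.1%.

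Of the 11 entries of the NBS-LRR list, 4 were called in alkali against distilled water with median-of-ratios size factors or DESeq2. The number was 0 with totals of either kind, clean reads or without DW1 and AS1, and 1 to 6 with 1 library left out. In salt 0 were called with totals of either kind or clean reads, 2 with TMM without the 5p arm, 3 with no filter or only the 2 conditions, and 0 to 4 with 1 library left out. Of the other phasiRNA triggers, 1 was called in alkali with totals of either kind, and 0 to 1 in alkali or salt with 1 library left out (1 without DW3). The Spearman rho of mtr-miR2593d with mtr-miR5213-5p was 0.73.

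Replicate numbers gave no sign of a pairing of the libraries. The deviations of same-numbered libraries correlated from -0.587 to 0.431, with 3 of 9 pairs over 0.1, and those of differently numbered libraries from -0.43 to 0.504. Deviations from a mean of 3 libraries constrain each other, so these values cannot decide whether a pairing exists. With a replicate block the salt call of mtr-miR1510b-3p was lost (adjusted p = 0.0629 from edgeR). The log2 fold change of mtr-miR5213-5p in salt was then -0.0061 and that of mtr-miR5213-3p in alkali against salt 0.013. With this block 31 miRNAs, and 0 entries of the NBS-LRR list, were called in salt. The depth of the 3p arm, 57 to 116 reads, limits what its level and the arm ratio can show.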

Other observations

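Other miRNAs known to start phased siRNAs in legumes were also examined, the entries of miR390, which starts the TAS3 pathway that limits auxin response factors, of miR393, which targets auxin receptors, and of miR1509. Of the 7 such entries, 6 were tested, and they held 5 distinct count profiles. By edgeR and DESeq2 0 of the 6 were called in any comparison, and at an unadjusted p under 0.05 edgeR gave 1, mtr-miR1509b, in alkali against distilled water (log2 fold change -0.40, adjusted p = 0.0949), and DESeq2 gave 1, mtr-miR390, there. In that comparison mtr-miR390 had a log2 fold change of 0.46 (adjusted p = 0.121 from edgeR). mtr-miR393a and mtr-miR393b-5p had the same counts, 11 to 26 per library. The study reports miR393 as undetected, whereas the deposited counts hold a few reads of it in each library.

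The 22-nt entries other than mtr-miR5213-5p held 1.0%, 1.27% and 1.48% of the counts in AS1, AS2 and AS3, 1.60%, 1.26% and 1.58% in SS1, SS2 and SS3, and 1.98%, 1.55% and 1.66% in DW1, DW2 and DW3. These are shares of the totals, a scale on which the median log2 fold change of all entries tested was -0.61 in alkali against distilled water.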
